A study of Homo sapiens with 6 samples.

Results

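The genes described here are 7 interferon-stimulated genes (ISGs), *ISG15*, *IFI6*, *IFIT1*, *IFIT2*, *IFIT3*, *MX1* and *OAS1*, and 2 transcription factors that regulate such genes, *IRF1* and *IRF7*. They were chosen by symbol, and all 9 were among the 17177 genes listed in the expression table. Their mRNA was measured by RNA-seq in NCI-H660, an established line of neuroendocrine prostate cancer (NEPC) cells, wild type and grown in HITES medium. The treatments were the drug pyrvinium pamoate (PP) and, as its control, PBS, with 3 libraries of each labelled as day 3. The study used PP to inhibit the RNA-binding protein ELAVL3, and the comparison asks which transcripts differed after that treatment. The concentration of PP in this experiment was not found in the sources used here, and 1 cell line and 1 time point were sampled. The labels number 3 libraries per treatment, the legends of the study give 3 independent samples and its methods give 2 per group. The *P* values therefore measure the spread between these libraries only.

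Each library held between 29064253 and 32481171 counts, which were recovered from the deposited values. Of the markers checked, *CHGA*, *SYP*, *ENO2*, *NCAM1* and *INSM1* of the neuroendocrine lineage were expressed in both treatments. In the fit described further on, *CHGA* (mean FPKM 43.3 with PBS and 24.8 with PP), *SYP* (30.9 and 26.1) and *ENO2* (69.5 and 62.4) were lower with PP, *INSM1* (16.5 and 19.3) was higher and *NCAM1* (15.4 in both) did not pass the threshold. The other 4 of the 9 neuroendocrine markers were low, with *FOXA2* (0.306 and 0.893, called higher), *ELAVL3* (0.870 and 1.06, not past) and *MYCN* (0.757 and 0.343, called lower) taken from the fit to lower genes and *SRRM4* near 0 in both treatments. Markers of other cell types were low, with the summed FPKM of 5 immune markers at 2.78 to 3.40 with PBS and 2.17 to 3.05 with PP. Most of the immune sum came from *CD14* (mean FPKM 1.44 and 1.47) and *CD68* (1.41 and 1.09), neither of which passed the threshold. *PTPRC* and *CD3E* were near 0. The 6 fibroblast markers summed to 4.09 to 4.49 with PBS and 4.49 to 4.91 with PP. Most of this came from *COL1A1*, which was higher with PP (mean FPKM 3.30 and 4.16). *COL1A2* (0.769 and 0.417) was called lower in the fit to lower genes, and *PDGFRB* was near 0. The part of these in the results was not tested. The FPKM is the number of fragments per kilobase of transcript, scaled to the mapped total of its library, so levels of different genes can be set side by side. In bulk RNA-seq, fewer cells that express a gene and less of its RNA per cell cannot be told apart.

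Interferons are secreted proteins that cells make when sensors of foreign or misplaced RNA and DNA are triggered. Type I interferons bind the receptor IFNAR1/IFNAR2, the kinases JAK1 and TYK2 are activated, and STAT2 with IRF9 forms part of the complex ISGF3, which binds interferon-stimulated response elements (ISREs) in the promoters of ISGs. Interferon gamma acts through a different receptor and through gamma-activated sites (GAS), for example in the *IRF1* promoter. IRF1 and IRF7 are themselves induced by interferons and in turn activate interferon and ISG promoters, while tumour cells can also keep a subset of ISGs on without added interferon.

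The promoters of these genes were searched for the letters of the 2 elements, and a stretch from each gene with a match is printed here because the genes differed in which letters they hold. RefSeq promoter windows (GRCh38.p14, from 250 bases before to 50 bases after a start site) were at hand for 7 of the 9 genes, all but *IFIT2* and *IRF7*. Each was searched on both strands for the core of the ISRE, GAAANNGAA, and for the core of the GAS, TTCNNNGAA, which reads the same on either strand. The ISRE core was found in 8.11% and the GAS core in 7.66% of all 35116 windows, or in at least 1 window of 9.86% and 9.38% of the 27305 genes that had one. In the lines that follow, capitals mark the matched core, each sequence is read on the strand of its gene, and TTCNNTTTC is the ISRE core on the opposite strand.
ISG15: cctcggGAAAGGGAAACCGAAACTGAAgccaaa
IFI6: agagggGAAAATGAAactgca
IFIT1: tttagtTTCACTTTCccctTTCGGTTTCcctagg
IFIT3: attagtTTCACTTTCcagttt
MX1: agaaatGAAACCGAAACTGAAttgtcc
OAS1: gcagagTTCAGAGAAaggctg
IRF1: cctgatTTCCCCGAAatgacg

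The ISRE core was present in 5 of the 7 genes with a window, *ISG15*, *IFI6*, *IFIT1*, *IFIT3* and *MX1*. Positions from the start site are those of the matched cores, and the coordinates are those of the whole printed stretch, which includes 6 bases on either side of the matches. In *ISG15*, 3 overlapping matches lay at positions -113 to -93 (stretch at chr1:1013378-1013410, plus strand). The stretch of *IFI6* (chr1:27672293-27672313, minus strand) holds 1 of its 3 matches. *IFIT1* had 2 matches at -115 to -94 (stretch at chr10:89392502-89392535, plus strand), and *IFIT3* had a match with the same 9 letters at -121 to -113 (stretch at chr10:89327870-89327890, plus strand). The printed *MX1* stretch (chr21:41420563-41420589, plus strand) lay just after the start site of 1 of its 3 windows. The GAS core was present in 3 genes, *MX1*, *OAS1* and *IRF1*, and in *MX1* it overlapped an ISRE core in a different window from the printed stretch. The *OAS1* match was at -168 to -160 (stretch at chr12:112906788-112906808, plus strand) and the *IRF1* match at -124 to -116 (stretch at chr5:132490883-132490903, minus strand). These are matches of letters and not tested binding sites, and a core that was not found is only missing from these windows.

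With PP the 9 genes did not change in 1 direction. Among the effectors, *IFI6*, *OAS1* and *ISG15* were lower in all 3 PP libraries than in any PBS library, *IFI6* at 0.339 times its PBS level, while both transcription factors were higher, *IRF1* at 1.95 times its PBS level. Differences are given as PP minus PBS on the scale of log2(FPKM + 1), from limma fitted to the 11726 genes whose mean FPKM was 1 or more, and a gene is called higher or lower at a Benjamini-Hochberg adjusted p under 0.05. Of the 9 genes, 7 entered this fit, of which 4 were lower (*IFI6*, *OAS1*, *ISG15* and *IFIT3*) and 3 were higher (*IRF1*, *IRF7* and *IFIT2*). *IFIT1* and *MX1* were below the filter and were taken from a second fit to the 13771 genes whose mean FPKM was 0.1 or more, in which *IFIT1* was lower and *MX1* did not pass the threshold. Many transcripts differed between the treatments, and 38.1% of the genes tested were called higher and 34.4% lower in the main fit, against 34.4% and 32.4% in the second. The share of the 9 genes that was called is thus to be read against a background in which most genes were called. The stricter cutoff in the study's methods (a *P* value under 0.001, together with a log2 fold change of more than 1 in size) was passed by 5.18% of the genes tested and by *IFI6* alone of the 9. It was applied on the scale of log2(FPKM + 1), which shrinks the differences of low genes, so some genes with a larger ratio of FPKM did not pass it. The 3 values of each treatment did not overlap for 7 of the 9 genes. In the main fit this held for 6 of the 7 genes, beside 75% of all genes tested. The median log2 fold change of the 7 genes in the main fit was -0.29, beside 0.02 over all genes tested.

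**Figure D1:**
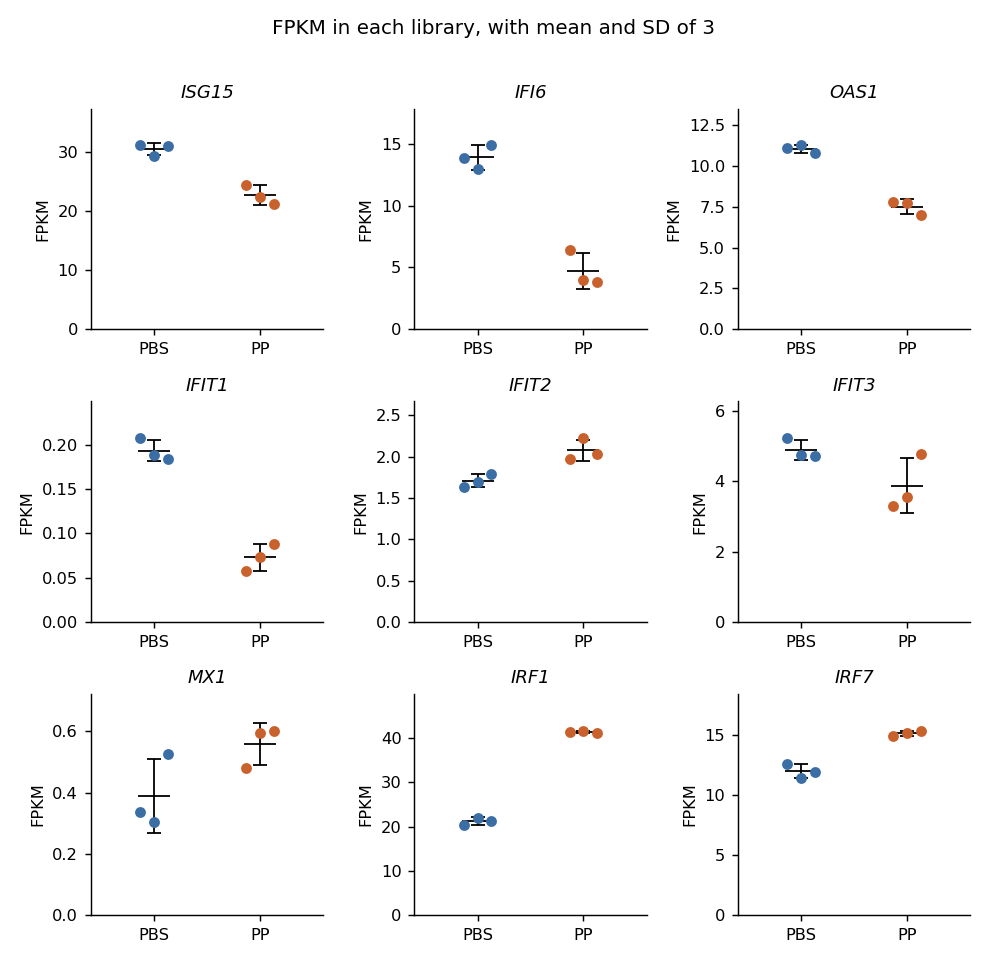
FPKM (vertical axes, each from 0) of the 9 genes in each of the 3 PBS libraries (blue points) and 3 PP libraries (orange points), with the mean (long bar) and SD (whiskers) of each treatment. The PP points of *ISG15*, *IFI6*, *OAS1* and *IFIT1* all lie below the PBS points, those of *IFIT2*, *IRF1* and *IRF7* all lie above, and the treatments overlap for *IFIT3* and *MX1*.

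The strongest decrease was that of *IFI6* (chromosome 1, 27666064 to 27672192 in GRCh38.p14), which encodes a mitochondrial and endoplasmic reticulum membrane protein that restrains apoptosis and flavivirus replication. Its FPKM was 13.9, 12.9 and 14.9 in PBS replicates 1, 2 and 3 and 6.40, 3.95 and 3.78 in PP replicates 1, 2 and 3. The PP libraries all lay far below the PBS libraries, and PP replicate 1 lay above the other PP libraries. The mean fell from 13.9 ± 0.974 to 4.71 ± 1.47 (SD, n = 3 each), and each PBS library held 318 to 390 counts and each PP library 100 to 165. The log2 fold change was -1.41 (standard error 0.14, 95% interval -1.72 to -1.10, adjusted p = 7.80e-06 from limma). Leaving out any 1 library gave values from -1.61 to -1.30.

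*OAS1* (chromosome 12, 112906962 to 112933219), whose enzyme makes 2′-5′-linked oligoadenylates on binding double-stranded RNA, was also lower. Its FPKM was 11.1, 11.3 and 10.8 in the PBS libraries and 7.82, 7.71 and 6.98 in the PP libraries. The replicates lay close together and the treatments were well apart. The level fell by 32.1%, from 11.1 ± 0.232 to 7.51 ± 0.457 (SD, n = 3 each), with a log2 fold change of -0.51 (standard error 0.05, 95% interval -0.62 to -0.39, adjusted p = 1.24e-05 from limma). Between 863 and 1297 counts per library stood behind these values. Of the other *OAS* genes, which were picked after their values were seen, *OAS3* fell from 41.6 ± 0.592 to 27.9 ± 0.419 (SD, n = 3 each; adjusted p = 2.83e-07 from limma), while *OAS2* had at most 8 counts in any library and *OASL* had at most 9.

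*ISG15* (chromosome 1, 1013497 to 1014540) encodes a ubiquitin-like protein that is attached to other proteins, and it had the highest level of the 9 genes with PBS. Its FPKM was 31.1, 29.3 and 31.0 in the PBS libraries and 24.5, 22.4 and 21.2 in the PP libraries. All PP libraries were below all PBS libraries, by a smaller proportion than for *IFI6*. The level fell by 25.4%, from 30.5 ± 1.02 to 22.7 ± 1.65 (SD, n = 3 each), and the log2 fold change was -0.41 (standard error 0.05, 95% interval -0.53 to -0.29, adjusted p = 6.01e-05 from limma). Each PBS library held 547 to 617 counts of it and each PP library 432 to 479.

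The 3 *IFIT* genes, neighbours on chromosome 10 whose tetratricopeptide-repeat proteins bind viral RNA or one another, did not move together. *IFIT3* (89327997 to 89340968) had an FPKM of 5.22, 4.74 and 4.71 in the PBS libraries and of 3.28, 3.56 and 4.76 in the PP libraries. PP replicates 1 and 2 lay below all PBS libraries, but PP replicate 3 lay above PBS replicates 2 and 3, so the treatments overlapped. The log2 fold change was -0.29 (standard error 0.10, 95% interval -0.51 to -0.06, adjusted p = 0.0255 from limma), and it ranged from -0.41 without PP replicate 3 to -0.20 without PP replicate 1. The call was lost when PBS replicate 1 (adjusted p = 0.0798), PP replicate 1 (adjusted p = 0.0932) or PP replicate 2 (adjusted p = 0.0879) was left out of the limma fit, and with no filter on low values (adjusted p = 0.0841).

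*IFIT2* (89302046 to 89309271) went the other way. Its FPKM was 1.64, 1.70 and 1.79 in the PBS libraries and 1.98, 2.22 and 2.03 in the PP libraries. Every PP library was above every PBS library, by a small margin, from 169 to 190 counts per PBS library and 206 to 228 per PP library. The log2 fold change was 0.18 (standard error 0.07, 95% interval 0.04 to 0.33, adjusted p = 0.0293 from limma). This call did not hold without PBS replicate 1 (adjusted p = 0.0806), PBS replicate 2 (adjusted p = 0.0693) or PP replicate 2 (adjusted p = 0.0998), or with limma-voom on the recovered counts (adjusted p = 0.0819), where the log2 fold change was 0.16, 0.18, 0.15 and 0.28.

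*IFIT1* (89392623 to 89406487) was expressed at a very low level. Its FPKM was 0.207, 0.189 and 0.184 in the PBS libraries and 0.0577, 0.0733 and 0.0879 in the PP libraries, from 29, 25 and 26 counts and from 8, 10 and 13 counts. The treatments did not overlap, and the summed counts of 80 and 31 gave a rate with PP of 0.379 times that with PBS (95% interval 0.242 to 0.580, counting error only). In the second limma fit *IFIT1* was lower by a log2 fold change of -0.15 (standard error 0.06, adjusted p = 0.0378), a value that the pseudocount of 1 shrinks at such low levels and that was -0.77 with a pseudocount of 0.1 and -1.38 with limma-voom. The call was lost when any 1 of the 6 libraries was left out (adjusted p from 0.0605 to 0.0934 in limma).

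*MX1* (chromosome 21, 41420558 to 41459214) encodes a dynamin-like GTPase that blocks influenza virus and other RNA viruses. Its FPKM was 0.337, 0.304 and 0.526 in the PBS libraries and 0.480, 0.595 and 0.601 in the PP libraries, from 52 to 96 and from 86 to 115 counts. PBS replicate 3 lay above PP replicate 1, so the treatments overlapped. The log2 fold change in the second fit was 0.17 (standard error 0.08, 95% interval -0.01 to 0.34, adjusted p = 0.0795 from limma) and did not pass the threshold. Without PBS replicate 3 it was 0.24 and passed (adjusted p = 0.0209 from limma). The summed counts of 209 and 306 gave a rate with PP of 1.43 times that with PBS (95% interval 1.20 to 1.71, counting error only).

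Exons of some of these genes overlap genes on the opposite strand in the GENCODE annotation, and the strand setting of the counting is not given in the sources used here. *IFIT2* and *IFIT3* share 65 and 94 bases with *LIPA*, whose FPKM was 3.92, 4.22 and 4.81 with PBS and 3.80, 2.87 and 3.66 with PP. *MX1* shares 442 bases with *TMPRSS2*, whose FPKM was 0.770, 1.01 and 1.27 with PBS and 0.502, 0.566 and 0.308 with PP. *IRF1* shares 1015 bases with the antisense transcript *IRF1-AS1*, which was not analysed here. If the counting did not use strand, reads in these shared bases cannot be told apart. On their own strand *IFI6* shares 216 bases with *LINC02574* and *IFIT2* shares 229 bases with another long non-coding RNA gene, which were not analysed here either, and there strand does not separate the reads.

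The 2 transcription factors were higher with PP. *IRF1* (chromosome 5, 132481609 to 132490773) encodes an activator that is induced by interferons and inflammatory cytokines and that drives antigen presentation and antiviral genes. Its FPKM was 20.3, 22.0 and 21.3 in the PBS libraries and 41.4, 41.6 and 41.1 in the PP libraries. The PP libraries were nearly equal, and each was far above every PBS library. The mean rose from 21.2 ± 0.874 to 41.4 ± 0.245 (SD, n = 3 each), from 2241 to 2379 and from 4488 to 4811 counts per library. The log2 fold change was 0.93 (standard error 0.04, 95% interval 0.84 to 1.02, adjusted p = 1.81e-08 from limma). Leaving out any 1 library gave values from 0.90 to 0.96.

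*IRF7* (chromosome 11, 612555 to 615950) encodes the factor that amplifies type I interferon production once it has been phosphorylated. Its FPKM was 12.6, 11.4 and 11.9 in the PBS libraries and 14.9, 15.1 and 15.3 in the PP libraries. All PP libraries were above all PBS libraries, by a smaller step than for *IRF1*. The level rose by 26.4%, from 12.0 ± 0.576 to 15.1 ± 0.191 (SD, n = 3 each), and the log2 fold change was 0.32 (standard error 0.05, 95% interval 0.21 to 0.42, adjusted p = 0.000153 from limma).

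**Figure D2:**
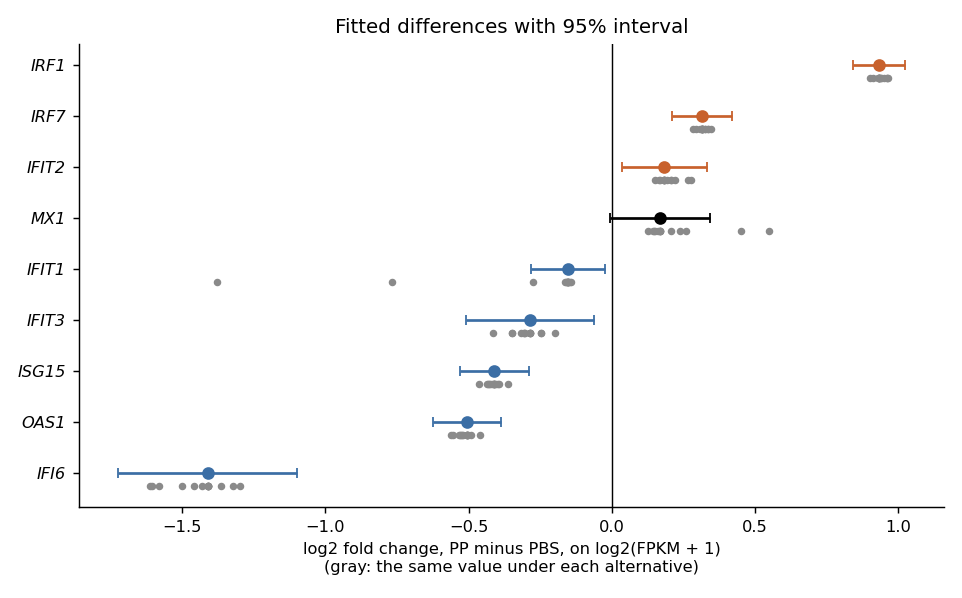
Fitted log2 fold change of each of the 9 genes, PP minus PBS on log2(FPKM + 1) (horizontal axis), as a coloured point with its 95% interval (orange called higher, blue called lower, black not past the threshold), and the same value under each alternative processing as gray points below it. *IRF1* lies at 0.93 and *IFI6* at -1.41, and the gray points of each gene stay on the same side of 0, those of *IFIT1* reaching -1.38 with limma-voom.

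These changes altered the order of the genes by level. With PBS the order by mean FPKM was *ISG15*, *IRF1*, *IFI6*, *IRF7*, *OAS1*, *IFIT3*, *IFIT2*, *MX1* and *IFIT1*, and the 3 values of each gene lay apart from those of its neighbours. With PP *IRF1* came before *ISG15*, *IFI6* dropped behind *IRF7* and *OAS1*, and the values of *IFI6* and *IFIT3* overlapped, while the remaining neighbours stayed apart. The mean FPKM of *ISG15* was above that of 86.8% of the 17177 listed genes with PBS and 81.3% with PP, and *IRF1* moved from above 80.5% to above 90.8%. *IFI6* went from above 71.5% to above 48.8% of the listed genes. *MX1* and *IFIT1* were low in both treatments, above at most 28.9% of the listed genes. The summed FPKM of the 9 genes was 93.8 to 97.2 with PBS and 95.9 to 100.9 with PP.

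The genes upstream were examined from lists of the pathway, beginning with the interferon genes themselves. *IFNB1* (chromosome 9, 21077104 to 21077942), the gene of interferon beta, had 1, 4 and 0 counts in the PBS libraries and 8, 12 and 14 counts in the PP libraries. The counts were few in every library but higher in each PP library than in any PBS library. The FPKM was 0.0670 ± 0.0850 with PBS and 0.431 ± 0.106 with PP (SD, n = 3 each), the summed counts gave a rate ratio of 6.64 (95% interval 2.59 to 21.8, counting error only), and the log2 fold change in the second fit was 0.42 (standard error 0.08, adjusted p = 0.00132 from limma). *IFNG*, the gene of interferon gamma, was listed at 0 in all 6 libraries. The other interferon genes were not analysed here.

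Among genes for sensing nucleic acids, 12 of the 16 in the table entered the main fit. Of the 12, 3 were higher, 5 were lower and 4 did not pass the threshold, with a median log2 fold change of -0.06. Over all genes tested, 38.1% were higher and 34.4% lower. The adaptor gene *STING1*, which relays the signal of cytosolic DNA, passed the cutoff. It fell from 25.3 ± 0.790 to 10.3 ± 0.436 FPKM (SD, n = 3 each), a log2 fold change of -1.22 (adjusted p = 7.38e-09 from limma). Its partner *CGAS*, the DNA sensor that makes the cyclic dinucleotide bound by STING, had 22, 22 and 8 counts with PBS and 42, 53 and 61 with PP, a rate ratio of 2.93 (95% interval 2.13 to 4.09, counting error only). On the log2(FPKM + 1) scale, which shrinks such low genes, it rose by 0.37 in the second fit (adjusted p = 0.00193 from limma). The RNA sensors also diverged. *DDX58*, which encodes RIG-I, had an FPKM of 7.82, 7.15 and 7.83 with PBS and 3.20, 3.48 and 3.69 with PP (log2 fold change -0.95, adjusted p = 3.74e-07 from limma), whereas *IFIH1*, which encodes MDA5, had 4.65, 4.59 and 4.42 with PBS and 7.08, 6.70 and 6.46 with PP (log2 fold change 0.48, adjusted p = 2.14e-05 from limma). *CGAS*, *DDX58* and *IFIH1* were picked after their values were seen.

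Of the 12 genes for interferon receptors and JAK-STAT signalling, 5 were higher, 6 were lower and 1 did not pass, with a median of -0.13. The shares over all genes tested were 38.1% higher and 34.4% lower. Both subunits of the type I receptor were lower. *IFNAR1* fell from 10.6 ± 0.455 to 8.68 ± 0.824 FPKM (log2 fold change -0.26, adjusted p = 0.00465) and *IFNAR2* from 4.90 ± 0.434 to 2.97 ± 0.157 (log2 fold change -0.57, adjusted p = 3.37e-05, SD, n = 3 each, from limma). The subunits of the interferon gamma receptor moved apart, with *IFNGR1* 38.8% higher and *IFNGR2* lower at 0.649 times its PBS level. The kinase gene *JAK1* rose from 17.9, 17.2 and 17.9 FPKM in the PBS libraries to 32.7, 33.5 and 33.3 in the PP libraries, with a log2 fold change of 0.87 (adjusted p = 2.02e-08 from limma).

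The ISGF3 genes *STAT2* and *IRF9* moved in opposite directions. *STAT2* was 46.8, 46.8 and 46.0 with PBS and 35.4, 34.2 and 35.1 with PP, so every PP library was lower (log2 fold change -0.40, adjusted p = 2.58e-06 from limma). *IRF9*, the DNA-binding part, rose from 15.6 ± 0.490 to 20.5 ± 0.808 FPKM (SD, n = 3 each, log2 fold change 0.37, adjusted p = 3.64e-05 from limma). RNA levels do not show whether these proteins were phosphorylated or in the nucleus.

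**Figure D3:**
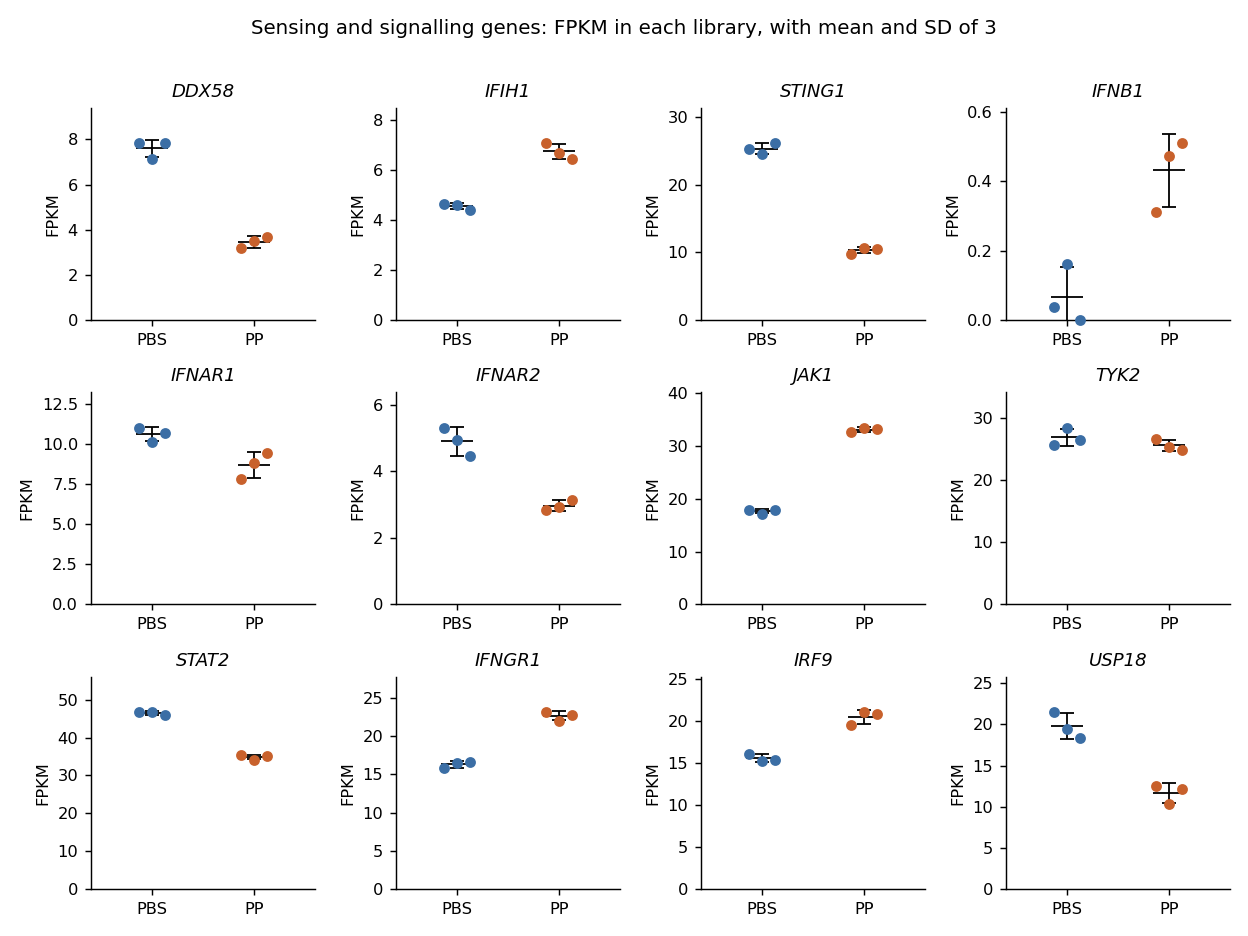
FPKM (vertical axes, each from 0) of 12 genes for sensing, interferon beta, receptor, kinase, ISGF3 and feedback functions in each of the 3 PBS libraries (blue) and 3 PP libraries (orange), with the mean (long bar) and SD (whiskers, ending at the axis where they would pass below 0). *STING1*, *DDX58*, *IFNAR1*, *IFNAR2*, *STAT2* and *USP18* are lower in every PP library, *IFIH1*, *IFNB1*, *IFNGR1*, *JAK1* and *IRF9* are higher in every one, and the treatments overlap for *TYK2*.

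In the IRF list, which held the other IRF genes and the IRF2-binding proteins, 8 of 10 genes were in the main fit. Of these, 5 were higher and 3 lower, with a median of 0.41, beside 38.1% higher and 34.4% lower over all genes tested. *IRF2BP2*, a co-repressor that binds IRF2, passed the cutoff and rose from 33.8, 34.3 and 34.8 FPKM to 89.8, 87.4 and 89.5 (log2 fold change 1.35, adjusted p = 3.76e-10 from limma). *IRF2*, which competes with IRF1 for its sites, fell from 3.41 ± 0.0641 to 2.12 ± 0.128 FPKM (SD, n = 3 each, log2 fold change -0.50, adjusted p = 3.68e-05 from limma). *IRF3*, the factor that first turns on *IFNB1*, was lower at a log2 fold change of -0.27 (adjusted p = 0.00865 from limma), although PBS replicate 1 lay below PP replicate 1, so the treatments overlapped. *IRF1* and *IRF2* thus differed in opposite directions.

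Among feedback inhibitors of the pathway, 1 of 10 genes tested was higher, 4 were lower and 5 did not pass, with a median of -0.03. In the same fit 38.1% of all genes tested were higher and 34.4% lower. *USP18*, which removes ISG15 from proteins and blocks the type I receptor, was 21.5, 19.5 and 18.4 FPKM with PBS and 12.5, 10.3 and 12.2 with PP, lower in every PP library (log2 fold change -0.72, adjusted p = 1.29e-05 from limma). *SOCS3* and *PTPN6*, a suppressor of cytokine signalling and a phosphatase, fell by 0.64 and 0.62 on the log2 scale. *NLRC5*, which is also the activator of MHC class I genes, rose by 0.61 on the log2 scale. *SOCS1* was 3.63 ± 0.485 with PBS and 4.30 ± 0.904 FPKM with PP (SD, n = 3 each) and did not pass the threshold (adjusted p = 0.167 from limma).

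Of the 6 genes in the list for ISG15 conjugation, 1 was higher, 3 were lower and 2 did not pass, and their median was -0.14. These counts stand beside 38.1% higher and 34.4% lower over all genes tested. The activating enzyme gene *UBA7* fell from 25.4 ± 0.447 to 19.7 ± 0.680 FPKM and the conjugating enzyme gene *UBE2L6* from 60.1 ± 0.673 to 42.6 ± 0.349 (SD, n = 3 each, adjusted p = 2.56e-05 and 4.35e-07 from limma). Both enzyme genes were lower along with *ISG15* itself and *USP18*. The main ligase gene *HERC5* went the other way, from 9.91, 8.86 and 9.24 FPKM to 15.8, 15.6 and 15.7 (log2 fold change 0.69, adjusted p = 6.70e-07 from limma). *TRIM25*, which can also act as a ligase, and *HERC6* did not pass the threshold (adjusted p = 0.140 and 0.141 from limma).

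The list of other type I ISGs had 51 genes in the table, of which 34 entered the main fit, with 14 higher, 11 lower and 9 not past the threshold, and a median of 0.05, beside 38.1% higher and 34.4% lower over all genes tested. In this list *LGALS3BP*, a secreted glycoprotein gene, and *IFITM3*, which blocks the entry of viruses into the cell, passed the cutoff. *LGALS3BP* was 84.0, 88.5 and 86.2 FPKM with PBS and 35.3, 39.8 and 36.4 with PP, a log2 fold change of -1.19 (adjusted p = 8.67e-09 from limma). *IFITM3* was 29.5, 26.0 and 33.4 with PBS and 13.3, 13.7 and 11.2 with PP, a log2 fold change of -1.16 (adjusted p = 1.25e-06 from limma). *IFITM3* has similar neighbours, *IFITM1* and *IFITM2*, so its value is uncertain where the counting may have split reads between them. *IFITM1* held at most 2 and *IFITM2* at most 26 counts in any library, against 225 to 637 for *IFITM3*.

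Genes induced mainly by interferon gamma had 10 of 16 in the main fit. Of the 10, 1 was higher, 4 were lower and 5 did not pass, with a median of -0.05, and 3 were past the cutoff. All genes tested gave 38.1% higher, 34.4% lower and 5.18% past the cutoff. *CD74*, the invariant chain of MHC class II, fell from 38.1 ± 1.90 to 14.3 ± 0.665 FPKM and the lysosomal thiol reductase gene *IFI30* from 174.9 ± 12.4 to 85.2 ± 4.61 (SD, n = 3 each, log2 fold changes -1.36 and -1.03, adjusted p = 5.57e-09 and 8.05e-08 from limma). *WARS1* rose from 105.9 ± 2.55 to 272.2 ± 7.87 FPKM (SD, n = 3 each, log2 fold change 1.35, adjusted p = 4.03e-10 from limma). *WARS1* encodes tryptophanyl-tRNA synthetase and also belongs to the genes for charging tRNAs. *GBP4* fell from 1.93 to 0.489 FPKM, to 0.253 times its PBS level. It missed the cutoff at a log2 fold change of -0.98 on the scale of log2(FPKM + 1). *GBP4*, *CIITA*, the activator of MHC class II genes, and the guanylate-binding protein gene *GBP5* were picked after their values were seen. *CIITA* was 0.994, 1.08 and 1.15 with PBS and 0.493, 0.519 and 0.523 FPKM with PP (adjusted p = 0.000114 in the second limma fit). *GBP5* had 72, 39 and 64 counts with PBS and 3, 0 and 5 with PP, a rate ratio of 0.0447 (95% interval 0.0190 to 0.0900, counting error only).

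**Figure D4:**
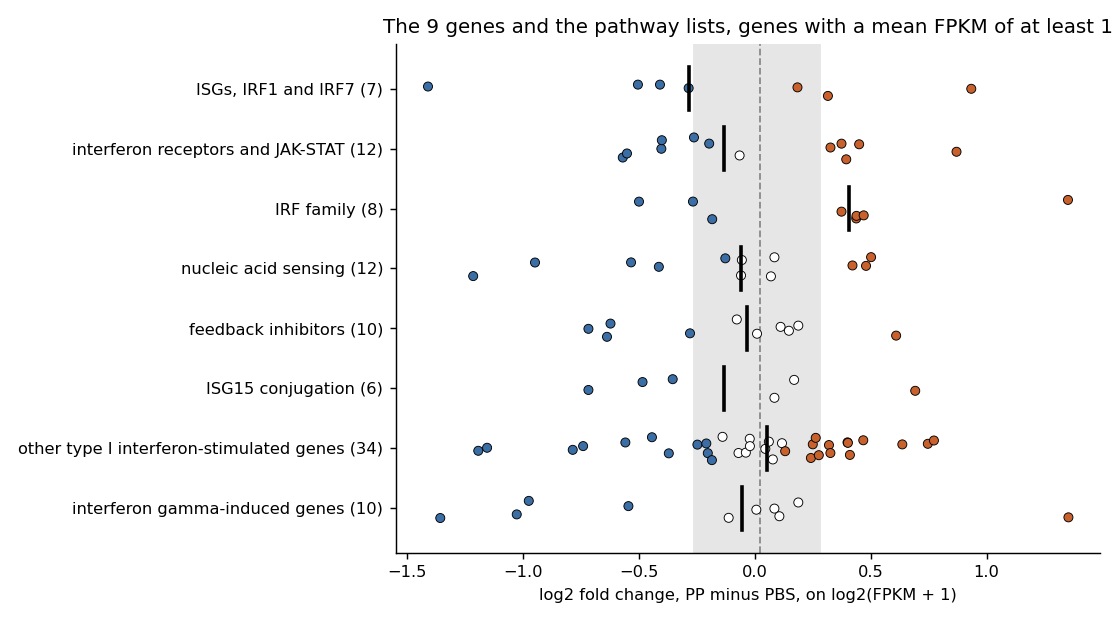
Log2 fold change, PP minus PBS on log2(FPKM + 1) (horizontal axis), of the 7 described genes in the main fit (top row) and of each pathway list, with the number of genes in brackets; each point is a gene (orange called higher, blue called lower, white not past the threshold), the black bar is the median of the row, and the gray band and dashed line are the middle 50% and the median of all genes tested. Each row has points on both sides of 0, and the medians lie between -0.29 for the 7 genes and 0.41 for the IRF list.

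Counting each gene once over the 9 genes and all lists, 95 genes entered the main fit, of which 32 were higher and 39 were lower, with a median log2 fold change of -0.02, beside 38.1% higher, 34.4% lower and a median of 0.02 over all genes tested.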

How the data were processed

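The authors deposited FPKM for 17177 genes in 6 libraries. Per the labels, submitters' processing notes name fastp, HISAT2, HTSeq and GRCh38, whereas the methods name Bowtie with hg19, RSEM, Cufflinks and HTSeq; which gave the table is not stated. Libraries came from a stranded mRNA kit. Whole counts were recovered from the FPKM steps of every gene (tolerance 0.01 of a count), and the precision of genes with few counts is limited by them.

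Differences were fitted with limma 3.58.1 in R 4.3.3 (lmFit, eBayes with trend) on log2(FPKM + 1), without covariates, for the 11726 genes whose mean FPKM was 1 or more. A second fit from a mean of 0.1 served lower genes. *P* values were adjusted by Benjamini-Hochberg over all genes tested, and the cutoff of the methods was applied to unadjusted *P*. Count ratios have exact intervals. In data simulated for this comparison over 11726 genes, all changed genes were found (73, 72 and 55 at log2 fold changes of 0.5, 1 and 2), with fits at 89.4% to 90.2% of the true size, and 19 of 11526 unchanged genes were called. The simulation changed few genes and gave every gene the same setting for the spread between libraries. In the real data most genes were called and spreads differed, so these are not the error rates of the real comparison.

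The genes and lists were chosen with earlier results of these data known. Genes named were the 9 genes, list genes past the cutoff or otherwise the 4 with the largest change, the genes for ISG15 conjugation, and *IFNB1*, *IFNG*, *IFNAR1*, *IFNAR2*, *STAT2*, *IRF9*, *IRF2*, *IRF3*, *USP18* and *SOCS1*. Other pathway genes were picked after their values were seen, and markers and overlapping genes serve the checks. Some listed genes and markers are not reported here and were left out of the lists. The 15 alternatives varied pseudocount, filter, scaling, trend, libraries, a replicate block and limma-voom. Python 3.11.15 was used for the counts, motifs and figures.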

Additional observations from a re-analysis of the deposited data

How the results depend on the processing

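The count of the 9 genes called higher was 2 to 3 and the count called lower 3 to 5 over the 15 alternatives, and *ISG15*, *IFI6*, *OAS1*, *IRF1* and *IRF7* kept direction and call under each. Genes called over the whole table ranged from 3529 to 4736 higher and from 3031 to 4458 lower. Past the cutoff, 263 genes were higher and 344 lower. These counts rose as the pseudocount fell, to 315 and 442 at 0.5 and to 375 and 531 at 0.1. They were 397 and 559 with limma-voom on recovered counts, the cause of which was not tested. Median-ratio scaling moved the median of all genes from 0.02 to 0.0014. Same-numbered libraries did not deviate together (correlations -0.211, -0.014 and -0.127). Whether samples with the same number were paired is not stated in the sources used here, and these correlations cannot decide it. With a replicate block, 4260 genes were higher and 3878 lower, the 9 genes gave 3 higher and 4 lower in the main fit, and only *IFIT1* of the 9 crossed the threshold (adjusted p = 0.0714 from limma). *IFIT1*, *IFIT2*, *IFIT3*, *MX1*, *IFNB1* and *IFNAR2* have no value at a mean FPKM of at least 5. The *IFIT1* values rest on 3 libraries per treatment with 8 to 29 counts each, and the part of depth in its call was not tested.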
